A study of Mus musculus with 6 samples.

Results

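The genes described here are markers of immune cells and of antigen presentation: 34 genes listed by symbol, in 5 groups. The list was chosen with earlier results of these data known. They are the common leukocyte antigen Ptprc, 18 macrophage and myeloid genes, 5 complement genes, 5 genes of the major histocompatibility complex (MHC) class II system and 5 genes of T and B lymphocytes. A gene was taken where a probe set was annotated to its symbol alone, and it was represented by the probe set with the highest mean over all arrays. This gave 32 of the 34 among 18193 genes; the complement genes C3 and C4b had no such probe set and are not analysed here.

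Expression was measured on 6 microarrays, 3 of carotid body and 3 of adrenal medulla, from untreated adult mice of the strain C57/BL6. The carotid body is the small chemoreceptor organ at the carotid bifurcation that senses arterial oxygen, and the adrenal medulla is the catecholamine-secreting core of the adrenal gland. Each carotid body sample was a pool of 18 organs and each adrenal medulla sample a pool of 10, in both cases from 10 mice. By the series' statement, a shared number marks a shared cohort of animals, which gives each carotid body array an adrenal medulla partner. The 3 pools of a tissue came from different cohorts, and the spread between them holds both animal and technical variation.

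Tissue macrophages are phagocytes that seed organs before birth or arise later from blood monocytes, and they depend on signals through the receptor encoded by Csf1r. Those along vessels and in connective tissue carry the scavenger receptors Mrc1 and Cd163, the folate receptor Folr2 and the hyaluronan receptor Lyve1, while Ccr2 marks monocytes and cells recently derived from them. Macrophages, dendritic cells and B cells load peptides on MHC class II molecules and show them to helper T cells. C1q, which macrophages make, starts the classical complement cascade.

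The values are log2 intensities, where a difference of 1 is 2-fold. No detection calls are used here, and of a dim probe set it is not known whether its gene is expressed. Differences are carotid body minus adrenal medulla, from a limma model of all 45037 probe sets, with p-values adjusted by Benjamini-Hochberg over all of them. A gene was called where the adjusted p was under 0.05 and the difference was at least 2-fold. Among all 18193 genes, 7120 had an unadjusted limma p under 0.05. In pools of whole organs, fewer cells of a type and less RNA per cell cannot be told apart.

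Other measures also differed between the tissues. Of 14 fibroblast and matrix genes 12 were called higher in carotid body, with list means of 11.20 to 11.47 in carotid body, against 8.80 to 9.04 in adrenal medulla. Of 12 adrenal cortex genes 10 were called lower, and their list means were 11.04 to 11.62 in adrenal medulla. Carotid body array 1, at a list mean of 9.67 against 5.43 and 5.19 in the other carotid body arrays, stood apart. The 3' minus 5' difference of the Gapdh control, a sign of RNA integrity, was 0.59 to 1.45 in carotid body, against 0.13 to 0.61 in adrenal medulla. Xist, made from the inactive X chromosome of females, had levels of 8.84 to 10.96 on the carotid body arrays, against 4.45 to 5.60 on the others. These levels did not overlap, so a difference in the sex of the pools cannot be told apart from one of tissue. Same-numbered pools thus differed in Xist, although the series states that they share a cohort. The part of each of these in the results below was not tested.

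Of the 32 genes, 5 were called higher in carotid body and 0 lower, against 5.91% and 6.08% of all genes. All 5 belong to the macrophage and myeloid group: Ccr2, Cd163, Folr2, Mrc1 and Csf1r. At an adjusted p under 0.05 without the 2-fold limit, 9 were higher and 1 lower, against 10.9% and 16.5% of all genes. In 11 genes the 3 carotid body arrays all lay above the 3 adrenal medulla arrays, and in 2 all below, which 17.8% and 26.1% of all genes did. The median difference of the 32 was 0.31, against -0.04 over all genes. Centring each array on its median moved every difference by -0.115; the median of the 32 was then 0.19, and the same 5 genes were called.

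**Figure D1:**
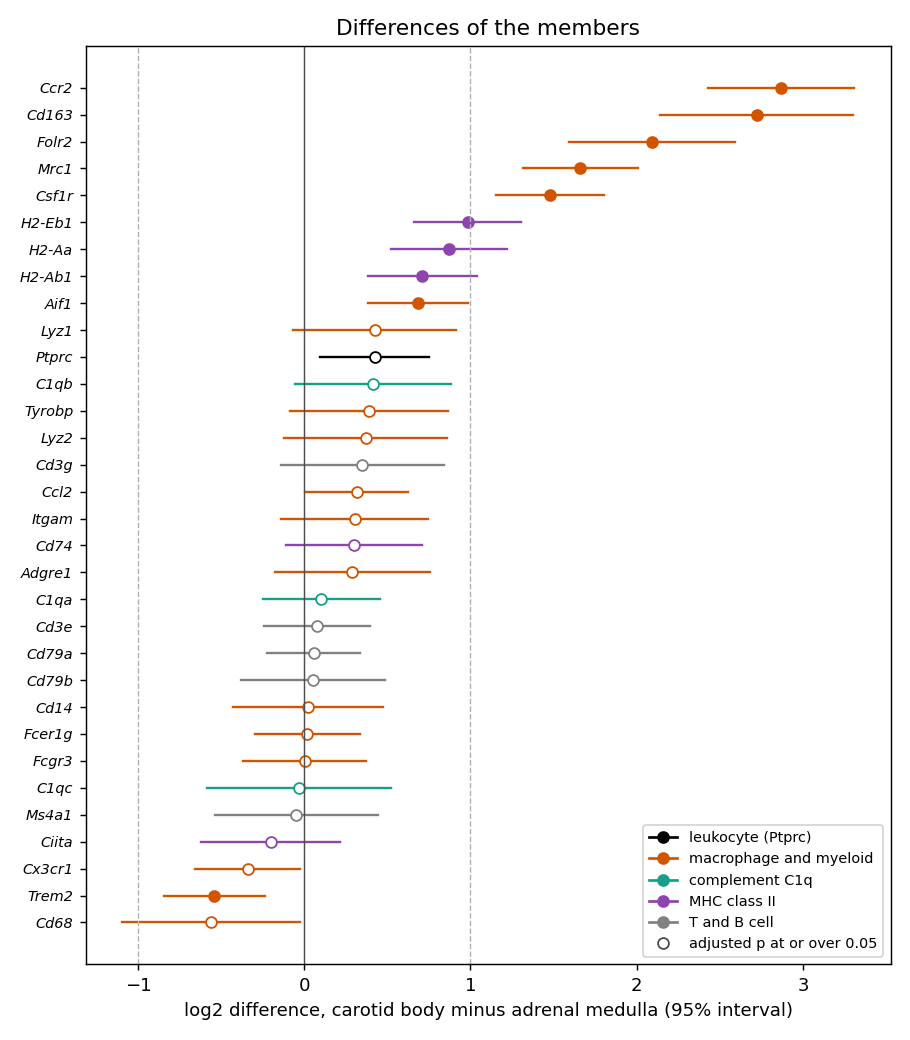
Log2 difference of each of the 32 genes, carotid body minus adrenal medulla, with its 95% interval; filled points have an adjusted p under 0.05 and dashed lines mark 2-fold. Ccr2, Cd163, Folr2, Mrc1 and Csf1r lie beyond 2-fold, the class II genes H2-Eb1, H2-Aa and H2-Ab1 between 0.71 and 0.98, and Trem2 is the filled point below 0.

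Ccr2, the receptor for monocyte-attracting chemokines, differed most. Its log2 level was 8.17, 7.61 and 7.53 in carotid body arrays 1, 2 and 3, and 4.94, 4.74 and 5.04 in adrenal medulla arrays 1, 2 and 3. The tissues did not overlap, and the difference was 2.87 ± 0.19 (SE, 3 arrays a tissue; limma adjusted p = 9.08e-05), or 7.30-fold. The gene has 4 probe sets, and the other 3 gave smaller differences of 0.33, 0.91 and 0.35. The mean of all 4 gave 1.12 (adjusted p = 0.000279), so the size depends on the probe set.

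Cd163, the scavenger receptor for haemoglobin bound to haptoglobin, was 7.96, 7.43 and 7.81 in carotid body, against 4.65, 5.55 and 4.84 in adrenal medulla. The difference was 2.72 ± 0.25 (SE; limma adjusted p = 0.000365), 6.60-fold. The lowest carotid body array thus lay well above the highest adrenal medulla array. Folr2, folate receptor beta, was 7.13, 7.45 and 7.70 in carotid body, against 5.72, 5.24 and 5.04 in adrenal medulla, again without overlap. It differed by 2.09 ± 0.21 (SE; limma adjusted p = 0.000588), 4.26-fold.

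Mrc1, the mannose receptor, was 9.45, 9.13 and 9.13 in carotid body, against 7.71, 7.65 and 7.37 in adrenal medulla. It differed by 1.66 ± 0.15 (SE; limma adjusted p = 0.00032), 3.16-fold. Csf1r, the receptor for the macrophage growth factors Csf1 and Il34, was 11.44, 11.55 and 11.34 in carotid body, against 10.12, 10.04 and 9.73 in adrenal medulla. Its difference was 1.48 ± 0.14 (SE; limma adjusted p = 0.000404), 2.78-fold, and its other 2 probe sets gave 1.07 and 0.52, both with an adjusted p under 0.05. Both genes had every carotid body array above every adrenal medulla array.

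All 5 kept their call in each of 16 alternative settings. Without carotid body array 1, the one with the higher cortex values, their differences were 2.67 for Ccr2, 2.61 for Cd163, 2.24 for Folr2, 1.55 for Mrc1 and 1.48 for Csf1r. That of Folr2 was larger than with all arrays, that of Csf1r the same to 2 decimals, and the other 3 smaller.

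**Figure D2:**
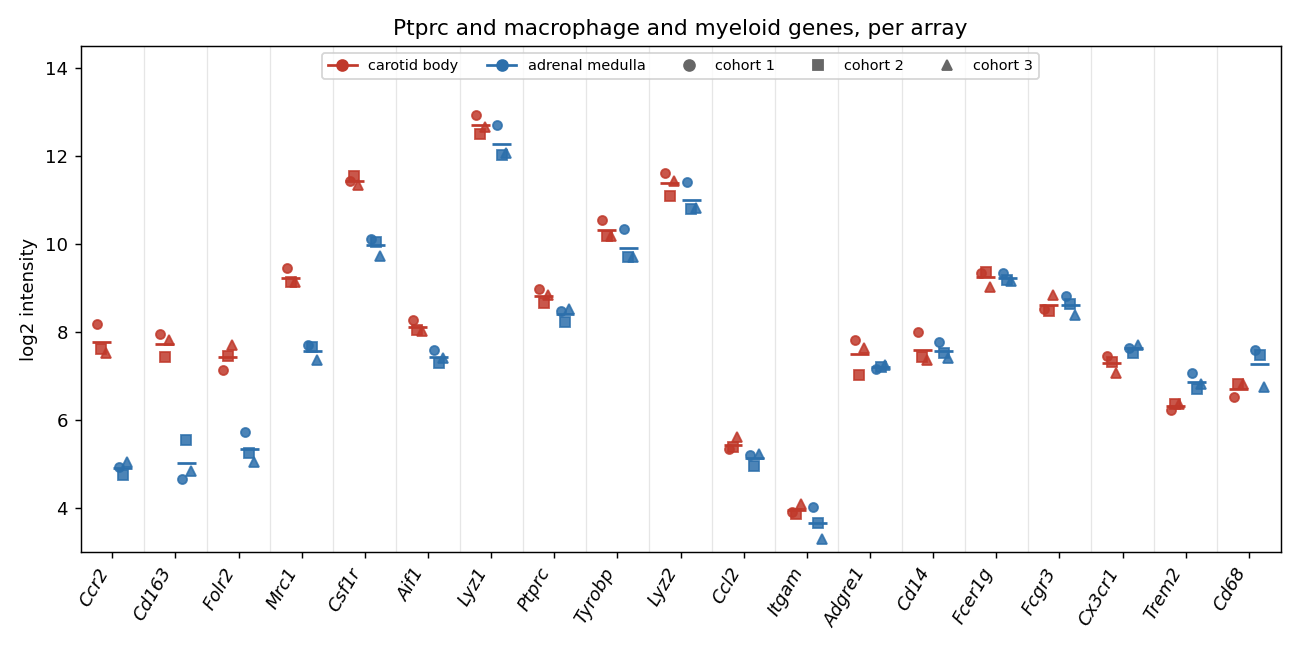
Log2 intensity per array of Ptprc and the 18 macrophage and myeloid genes, ordered by difference; points are arrays, shapes are cohorts and lines are tissue means of 3 arrays. The tissues are apart for Ccr2, Cd163, Folr2, Mrc1 and Csf1r, and interleave for Tyrobp, Fcer1g, Fcgr3 and Cd14.

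Several genes shared widely by macrophages and other myeloid cells did not pass the test, and their differences were small. Fcgr3, a low-affinity receptor for IgG, differed by 0.00 (95% interval -0.37 to 0.37), and Fcer1g, the signalling chain of Fc receptors, by 0.02 (-0.30 to 0.33). Both intervals lie inside 2-fold in either direction and do not reach the differences of the 5 called genes. Cd14, a coreceptor for lipopolysaccharide, differed by 0.02 (-0.43 to 0.47). All 3 turned negative, at -0.11, -0.10 and -0.09, with arrays centred on their medians.

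Tyrobp, the adaptor that carries signals of Trem2 and other receptors, was 10.54, 10.19 and 10.19 in carotid body, against 10.35, 9.71 and 9.70 in adrenal medulla. Adrenal medulla array 1 overlapped the carotid body arrays, and the difference of 0.39 did not pass (limma adjusted p = 0.225). The F4/80 antigen gene Adgre1 differed by 0.29 (adjusted p = 0.362), with carotid body array 2, at 7.02, below all adrenal medulla arrays. Itgam, the integrin chain CD11b, lay between 3.29 and 4.10 on all arrays, near the lowest value of the table, 2.7, and gave no call (0.30, adjusted p = 0.313). Ptprc, which encodes CD45 on all nucleated blood cells, was 8.65 to 8.99 in carotid body, against 8.22 to 8.51 in adrenal medulla. Its difference of 0.42 had an adjusted p of 0.0663, or 0.0471 in the fit blocked on cohort, and stayed under 2-fold.

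Lyz1 and Lyz2, the lysozyme genes, are close copies, and probe sets can share signal between them. The brightest probe set of Lyz1, of a design that may bind other sequences, gave 0.42 (adjusted p = 0.199) and Lyz2 gave 0.37 (adjusted p = 0.264). Their array values rose and fell together: both were highest in array 1 of each tissue. The dimmest of the 3 Lyz1 probe sets is the only Lyz1 probe set not of that design. It lay low, at a mean of 3.71, and gave -0.13, so the 2 genes cannot be told apart here. Aif1, the actin-binding protein IBA1, passed the test under 2-fold. It was 8.03 to 8.27 in carotid body, against 7.30 to 7.58 in adrenal medulla, a difference of 0.69 ± 0.13 (SE; limma adjusted p = 0.00792).

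Of the 18 macrophage and myeloid genes 3 had negative differences. Trem2, a lipid-sensing receptor of microglia and other macrophages, was 6.24, 6.36 and 6.37 in carotid body, against 7.07, 6.71 and 6.81 in adrenal medulla. It was lower in every carotid body array, by -0.54 ± 0.13 (SE; limma adjusted p = 0.0213), short of 2-fold. Its other, dim probe set gave -0.02, and the mean of both -0.28 (adjusted p = 0.0922), which did not pass. Cx3cr1, the fractalkine receptor, was 7.08 to 7.46 in carotid body, against 7.52 to 7.72 in adrenal medulla. The arrays did not overlap, yet the difference of -0.34 did not pass (adjusted p = 0.117). The lysosomal gene Cd68 differed by -0.56 (adjusted p = 0.124), with adrenal medulla array 3, at 6.75, among the carotid body values.

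The ligands of these receptors, chosen for this description after their values were seen, did not all go the same way. For Ccr2, the ligand genes Ccl2 and Ccl7 differed by 0.31 (adjusted p = 0.133) and 0.28 (adjusted p = 0.129). Ccl12, another Ccr2 ligand, was higher in carotid body by 2.05 ± 0.25 (SE; limma adjusted p = 0.00138), at 6.31 to 7.18 against 4.30 to 4.94. For Csf1r, Csf1 was higher by 0.52 (adjusted p = 0.0104), under 2-fold, and Il34 differed by -0.23. The fractalkine gene Cx3cl1 differed by -0.25. Neither of these last 2 passed the test (adjusted p = 0.383 and 0.478).

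A wider list of 35 chemokine, cytokine and growth factor genes had 5 called higher and 2 lower, or 14.3% and 5.71% against 5.91% and 6.08% of all genes, with a median of 0.08. Ccl11, eotaxin, was 8.32 to 9.01 in carotid body, against 3.96 to 4.20 in adrenal medulla, a difference of 4.63 ± 0.19 (SE; limma adjusted p = 1.73e-05). Ccl8, a monocyte chemoattractant, differed by 3.86 and Cxcl12, the ligand of Cxcr4, by 2.64. Cxcl14 was lower in carotid body, by -3.59 ± 0.37 (SE; limma adjusted p = 0.000627). Fibroblasts also make Ccl11 and Cxcl12, and the fibroblast genes given above moved with them; their part was not tested.

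Among 61 other macrophage genes 14 were called higher and 1 lower, and 24 and 3 at an adjusted p under 0.05 alone; the median was 0.35. Those called are 23% and 1.64% of the list, against 5.91% and 6.08% of all genes, and those at the adjusted p alone 39.3% and 4.92%, against 10.9% and 16.5%. Cbr2, a carbonyl reductase of resident macrophages that other cells also make, was 8.47 to 8.57 in carotid body, against 4.66 to 5.04 in adrenal medulla, a difference of 3.65 ± 0.13 (SE; limma adjusted p = 9.58e-06). The lectin Clec10a, which binds galactose-type sugars, was 7.12 to 7.65 against 4.24 to 4.70, a difference of 2.83. Pf4, a chemokine of platelets and of resident macrophages, was 9.60 to 10.13 against 7.32 to 7.41, a difference of 2.44. P2ry12, the ADP receptor of platelets and microglia, differed by 3.60. Lyve1, named after its value was seen, differed by 1.95 (adjusted p = 0.00917); lymphatic endothelium carries it too. The gene called lower was Csf2ra, a chain of the GM-CSF receptor, at -1.78, named after its value was seen; without carotid body array 2, 2 genes were called lower. When the probe sets of each gene were averaged, 9 were called higher and 0 lower.

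Of the 5 MHC class II genes the chain genes H2-Eb1, H2-Aa and H2-Ab1 were higher in carotid body at an adjusted p under 0.05, by 1.98-fold, 1.83-fold and 1.64-fold, and Cd74 and Ciita did not pass. None of the 5 was called in either direction, and the median was 0.71. An unadjusted limma p under 0.05 was found for 3 of them, beside 7120 of all 18193 genes. H2-Eb1, the beta chain of I-E, was 11.17, 11.24 and 11.28 in carotid body, against 10.50, 10.12 and 10.12 in adrenal medulla. Its difference was 0.98 ± 0.14 (SE; limma adjusted p = 0.00242). C57BL/6 mice lack a functional alpha chain for this molecule, so the RNA is made without the surface protein.

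H2-Aa, the alpha chain of I-A, was 12.27, 12.14 and 12.08 in carotid body, against 11.58, 11.14 and 11.16 in adrenal medulla. It differed by 0.87 ± 0.15 (SE; limma adjusted p = 0.00548), and its other 3 probe sets gave 1.15, 1.15 and 1.35, each called. H2-Ab1, the beta chain of I-A, was 10.79 to 11.02 in carotid body, against 9.96 to 10.37 in adrenal medulla, a difference of 0.71 ± 0.14 (SE; limma adjusted p = 0.00986); its other 2 probe sets gave 0.70 and 0.67. In all 3 genes every carotid body array lay above every adrenal medulla array.

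The 2-fold limit divided these genes by small margins. H2-Eb1 passed it without carotid body array 1 (1.01) and, with adrenal medulla array 1 left out, at 1.11, where H2-Aa passed too, at 1.01. The count called was 1, 2 and 1 with carotid body array 1, adrenal medulla array 1 or all of cohort 1 left out.

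Cd74, the invariant chain that guides class II molecules to the peptide-loading compartment, was 10.32 to 10.42 in carotid body, against 9.78 to 10.44 in adrenal medulla. Adrenal medulla array 2 was above all carotid body arrays, and the difference of 0.30 (95% interval -0.11 to 0.71) did not pass (limma adjusted p = 0.279). Ciita, the transactivator that switches class II genes on, was between 4.67 and 5.44 on all arrays and differed by -0.20 (adjusted p = 0.481). Its other 2 probe sets were dimmer and gave 0.23 and 0.14, so no direction can be given for it.

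Of 17 other genes of the class II pathway 2 were called higher and 0 lower, or 11.8% and 0% against 5.91% and 6.08% of all genes. At an adjusted p under 0.05 alone 6 were higher and 1 lower, or 35.3% and 5.88% against 10.9% and 16.5% of all genes. The median was 0.25. Irf8, among the 6 and named after its value was seen, is also in the list of other macrophage genes. H2-DMa, a chain of the peptide exchange factor DM, was 8.39 to 8.50 in carotid body, against 7.28 to 7.54 in adrenal medulla, a difference of 1.01 ± 0.12 (SE; limma adjusted p = 0.00113). H2-Ob and H2-Oa, the chains of the DM inhibitor DO, differed by 1.00 (adjusted p = 0.00289) and 0.84 (adjusted p = 0.0145), and H2-DMb2 by 0.81, or 0.52 as the mean of its 3 probe sets. H2-DMa and H2-Ob lie at the limit: 0 of the list were called when carotid body array 1, carotid body array 3 or adrenal medulla array 2 was left out. Without adrenal medulla array 1, or without both arrays of any 1 cohort, 1 was called. Ctss, the protease that trims the invariant chain, was 11.18 to 11.40 against 11.53 to 11.95 and differed by -0.41 (adjusted p = 0.0819); it was chosen after its values were seen.

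Promoter letters are shown for H2-Aa, H2-Eb1, H2-Oa and H2-Ob, which all differed in the same direction and all hold the letters marked below. H2-DMa and H2-DMb2 also differed in that direction and are not shown. Class II promoters are known to hold an X box, bound by the RFX complex, and a Y box, bound by NF-Y, on which Ciita acts. Of the 32 genes 21 matched a RefSeq promoter table of GRCm38.p6, which holds 250 bases before and 50 after the start of transcription; H2-Ab1 was not among the matches. The windows below run from -120 to -31 relative to the start, 5′ to 3′ on the strand of the gene, with GCAAC (conserved letters of the X box) and TGATTGG (the Y box, whose other strand reads CCAATCA) in capitals. They lie at chr17:34287854-34287943 on the minus strand for H2-Aa, and on the plus strand at chr17:34305747-34305836 for H2-Eb1, chr17:34092259-34092348 for H2-Oa and chr17:34238785-34238874 for H2-Ob.
H2-Aa: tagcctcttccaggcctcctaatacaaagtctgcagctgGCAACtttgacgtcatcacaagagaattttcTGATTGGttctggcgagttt
H2-Eb1: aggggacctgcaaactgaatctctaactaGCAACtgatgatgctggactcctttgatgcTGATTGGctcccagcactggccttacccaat
H2-Oa: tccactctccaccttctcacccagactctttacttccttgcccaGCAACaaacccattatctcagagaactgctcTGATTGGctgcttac
H2-Ob: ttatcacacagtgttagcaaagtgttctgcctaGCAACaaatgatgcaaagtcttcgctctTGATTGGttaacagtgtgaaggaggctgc

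In these 4 windows the gap between GCAAC and TGATTGG was 26, 25, 26 and 23 bases. Searched on both strands, GCAAC occurs in 35.2% and TGATTGG in 7.82% of the 32851 promoters of the table. Both in this order with a gap of 15 to 45 bases, limits set after the sequences were read, occur in 0.298%. These are promoters of 92 genes, 5 of them among the 8 class II genes of the table. The 5 include the 4 genes shown, so H2-DMa and H2-DMb2 do not both hold the pair there. Of the 24 promoters of the measured genes 3 hold the pair, those of H2-Aa and H2-Eb1 and that of Cd68, whose difference was negative and did not pass the test. A match is a description of letters and shows no binding.

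**Figure D3:**
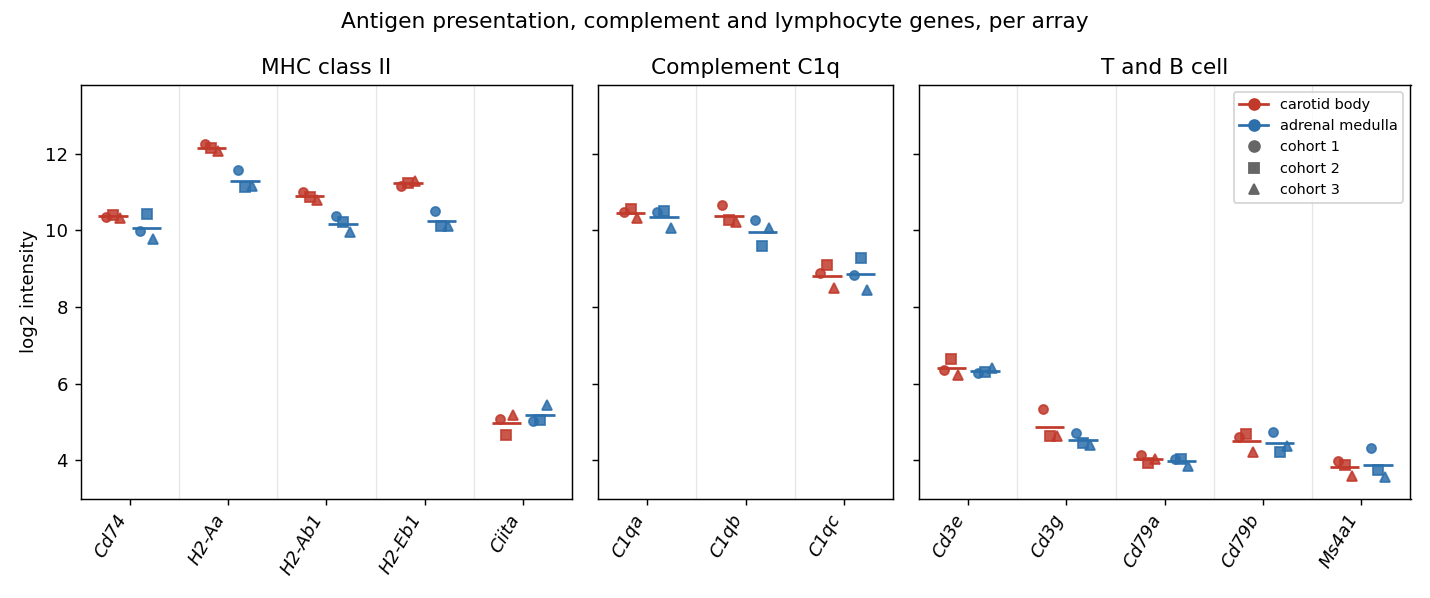
Log2 intensity per array of the MHC class II, C1q and lymphocyte genes; points are arrays, shapes are cohorts and lines are tissue means of 3 arrays. H2-Aa, H2-Ab1 and H2-Eb1 are apart between tissues, C1q genes overlap at about the same level in both, and the lymphocyte genes other than Cd3e lie low in both.

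MHC class I genes serve presentation to cytotoxic T cells in nearly all cell types. A list of these and of related genes, such as those of peptide supply and loading, was set beside the class II genes. Of 35 listed genes 23 were measured. In this list H2-Ke6, at -0.98, is a dehydrogenase gene of the MHC region outside this pathway, and the counts that follow leave it out. Of the other 22 genes 18 were below 0, or 81.8% against 54.7% of all genes, with a median of -0.37. Of these 2 were called lower and 0 higher, close to the 6.08% of all genes called lower, and 6 were lower at an adjusted p under 0.05, where 16.5% of all genes were. B2m, the shared light chain, was 13.06 to 13.17 in carotid body, against 13.50 to 13.77 in adrenal medulla, a difference of -0.51 (adjusted p = 0.0176). Nlrc5, the class I transactivator, differed by -1.06 ± 0.16 (SE; limma adjusted p = 0.00292), and the peptide-trimming Erap1 by -1.07. The heavy chain gene H2-K1 was 11.76 to 12.07 against 12.27 to 12.71, a difference of -0.51 (adjusted p = 0.053, or 0.0431 in the blocked fit). Pdia3, of the loading complex, differed by -0.63 (adjusted p = 0.0451, or 0.0529 in the blocked fit). B2m and H2-K1 were chosen after their values were seen. Erap1 and Nlrc5 both lost their call without adrenal medulla array 3, where 0 of the 22 were called. The count was 3 with array 1 of either tissue left out and 4 without cohort 1. It was 1 when carotid body array 2, carotid body array 3, cohort 2 or cohort 3 was left out.

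The C1q genes, which encode the chains of the first complement component, overlapped between the tissues. None of the 3 was called (limma; 0 had an unadjusted p under 0.05). C1qa was 10.48, 10.56 and 10.32 in carotid body, against 10.48, 10.50 and 10.08 in adrenal medulla, a difference of 0.10 (95% interval -0.25 to 0.45). C1qc differed by -0.03 (-0.58 to 0.52), and its arrays interleaved. C1qb gave 0.42 (-0.05 to 0.88) on its brightest probe set, 0.46 on another and -0.36 on the remaining one, none of them past the test, so its probe sets disagree in sign.

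Of 28 other complement genes 3 were called higher and 1 lower, with a median of 0.03. These few calls, 10.7% and 3.57% of the list, lie near the 5.91% and 6.08% of all genes, and are given as single genes. Serping1, the inhibitor of C1r and C1s, was 12.67 to 13.01 in carotid body, against 10.34 to 10.84 in adrenal medulla, a difference of 2.27 ± 0.16 (SE; limma adjusted p = 0.000131). C1s1, the protease of the C1 complex, differed by 1.94; both are also made by fibroblasts. C1qtnf1, at 1.87, is a secreted relative of C1q outside the cascade. Cd55, which breaks up the C3 convertase on the cell surface, was lower in carotid body by -4.17 ± 0.36 (SE; limma adjusted p = 0.000296), at 6.14 to 7.52 against 10.40 to 11.14. Without carotid body array 1, or without cohort 1, 2 genes were called lower.

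None of the 5 lymphocyte genes was called (limma; 0 had an unadjusted p under 0.05), and all but Cd3e were dim, below the median of all probe sets. Cd3e, a chain of the T cell receptor complex, was 6.36, 6.64 and 6.23 in carotid body, against 6.27, 6.30 and 6.42 in adrenal medulla, a difference of 0.08 (95% interval -0.24 to 0.40). Cd3g, another chain, differed by 0.35 (-0.14 to 0.84) and was 5.34 in carotid body array 1 but 4.64 or less on every other array except adrenal medulla array 1, at 4.71. The B cell receptor chains Cd79a and Cd79b and the B cell antigen Ms4a1 (CD20) were 3.55 to 4.75 on all arrays. They differed by 0.06, 0.05 and -0.05. Levels as low as those of the B cell genes have no order that can be read.

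Of 26 other T cell genes 3 were called higher and 0 lower, or 11.5% and 0% against 5.91% and 6.08% of all genes, with a median of 0.07. They were Bcl11b at 4.53 (2.49 as the mean of its 4 probe sets), Lef1 at 3.58 and Il7r at 1.78, of which Bcl11b and Lef1 are transcription factors also used by neurons, epithelia and mesenchyme. Cd4, Cd8a and Cd3d, chosen after their values were seen, differed by 0.09, -0.30 and 0.22 and were not called. Of 21 other B cell genes 10 had an unadjusted p under 0.05 (limma), beside 7120 of all 18193 genes. Called higher were 0 and lower 1, or 0% and 4.76% against 5.91% and 6.08% of all genes. The lower one was Ighm, the IgM heavy chain, at 7.5 to 8.09 in carotid body against 9.04 to 9.99 in adrenal medulla, a difference of -1.66 ± 0.26 (SE; limma adjusted p = 0.0037). It has 11 probe sets, whose mean gave -0.19 (adjusted p = 0.177). Without cohort 2 Ighm was not called, nor was Il7r. In the B cell list 1 gene was called higher without carotid body array 2, cohort 1 or cohort 2. Tnfrsf13b, a receptor for B cell survival factors, differed by 0.87, Ly86 by 0.65 and Blnk by 0.64, all with an adjusted p under 0.05 and under 2-fold.

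Other immune cell types were set beside these genes. Of 13 genes of natural killer and cytotoxic cells 1 was called higher and 2 lower. These are 7.69% and 15.4% of the list, against 5.91% and 6.08% of all genes. Klrd1 was higher, at 1.75. The granzymes Gzma, at -3.22 ± 0.21 (SE, limma adjusted p = 9.53e-05), and Gzmb, at -1.59, were lower. Gzma was 4.33 to 5.04 in carotid body, against 7.66 to 8.19 in adrenal medulla; Nkg7, of cytotoxic granules, was lower by -0.65 (adjusted p = 0.0245). Of 15 neutrophil genes 1 was called higher and 0 lower, or 6.67% and 0% against 5.91% and 6.08% of all genes. It was the gelatinase Mmp9 at 1.20, which macrophages also make, and it was not called without cohort 2. S100a8 and S100a9, abundant in neutrophils and monocytes and named after their values were seen, lay between 3.75 and 5.39 on all arrays. Of 12 dendritic cell genes 1 was called higher and 0 lower, or 8.33% and 0% against 5.91% and 6.08% of all genes. It was the lectin Cd209a at 1.93 ± 0.37 (SE, limma adjusted p = 0.00831). Without carotid body array 1 or cohort 1, 2 were called higher. Siglech at 0.76 and Kmo at 0.72 were higher under 2-fold. Fscn1 was too, at 0.97 (adjusted p = 0.0435), but the mean of its 4 probe sets gave 0.17 (adjusted p = 0.415).

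Of 10 mast cell genes 6 were called higher in carotid body and 1 lower, or 60% and 10% against 5.91% and 6.08% of all genes, with a median of 1.26. Cpa3, a granule protease, was 9.48 to 9.94 in carotid body, against 3.80 to 4.69 in adrenal medulla, a difference of 5.46 ± 0.23 (SE; limma adjusted p = 1.73e-05). Cma1, Mcpt4 and Fcer1a differed by 4.81, 3.37 and 2.25. Fcer1g, the partner chain of Fcer1a, gave 0.02. The one lower was Gata2, a transcription factor that chromaffin cells also use, at -1.54, named after its value was seen; it was not called without cohort 2.

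Of 30 interferon response genes 3 were called higher and 0 lower, with a median of -0.03. These are 10% and 0% of the list, against 5.91% and 6.08% of all genes. An unadjusted limma p under 0.05 was found for 9 of the 30, beside 7120 of all 18193 genes. Ifitm1 differed by 2.03, the guanylate-binding protein gene Gbp2 by 1.33 and Ifitm3 by 1.14, while Oasl1 was lower by -0.93, under 2-fold. Ifitm3 lost its call when carotid body array 2, adrenal medulla array 3, cohort 1 or cohort 2 was left out, and Ifitm1 without cohort 2. The count called higher was 5 without carotid body array 1 and 1 without cohort 2, where Gbp2 remained. Those called lower were 1 without adrenal medulla array 1 or 3 and 2 without carotid body array 3 or cohort 3.

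**Figure D4:**
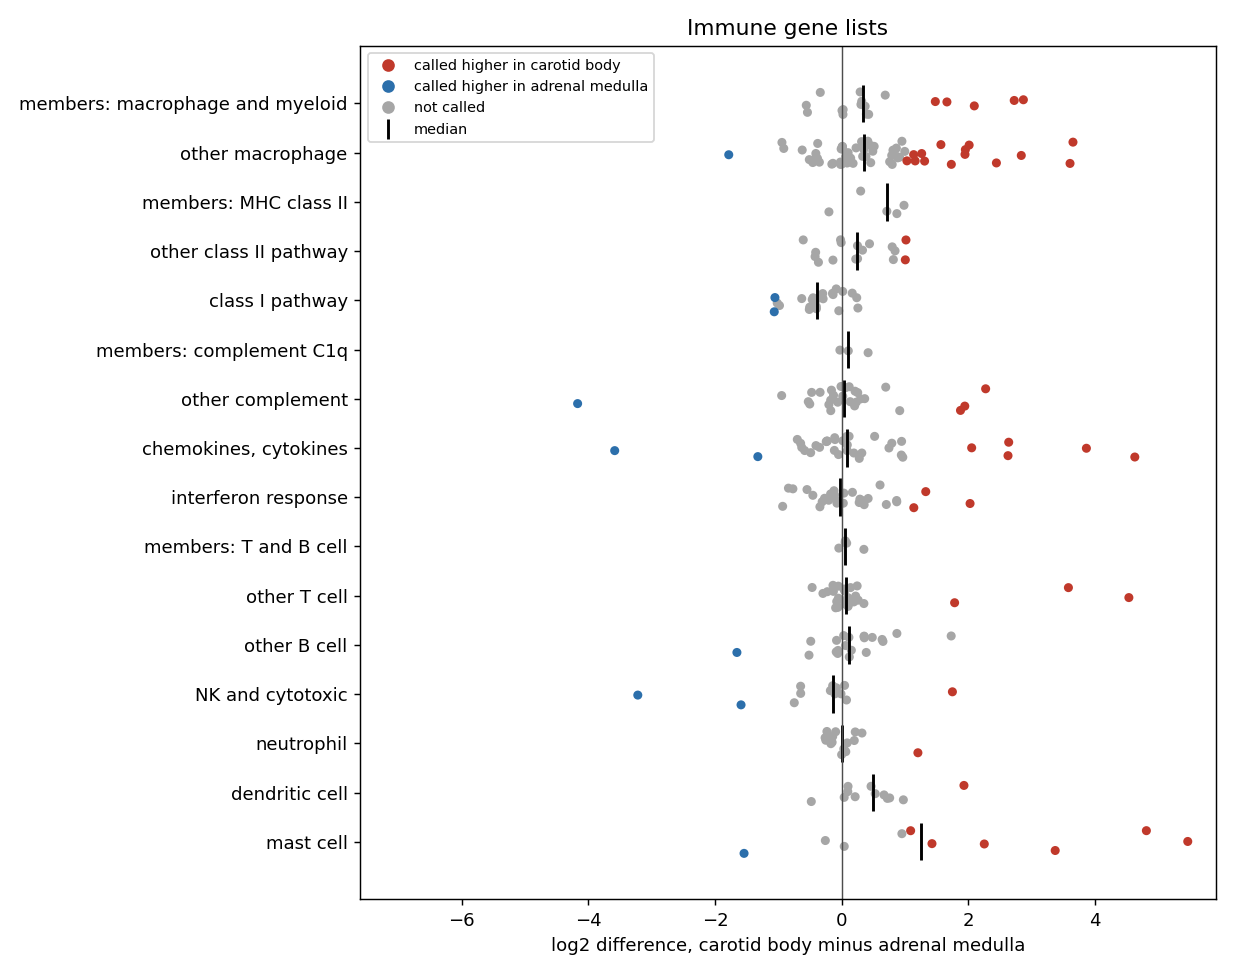
Log2 differences, carotid body minus adrenal medulla, of the genes in each immune list; each point is 1 gene, black bars are list medians and colours mark calls at 2-fold and an adjusted p under 0.05. Medians lie near 0 for complement, lymphocyte and neutrophil genes, at 0.71 for the MHC class II members, at -0.40 for the class I list with H2-Ke6 and at 1.26 for mast cells.

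Arrays of one tissue also differed among themselves. In adrenal medulla array 1, 16 of the 18 macrophage and myeloid genes lay above their tissue mean, against 7 and 4 in arrays 2 and 3. In carotid body array 1 it was 11, against 6 and 9. Of the 5 lymphocyte genes 4 lay above the tissue mean in array 1 of each tissue. The means over all genes were 6.854, 6.893 and 6.885 in adrenal medulla arrays 1, 2 and 3. In the carotid body arrays they were 6.79, 6.81 and 6.87. The share of all genes above the tissue mean is not given here. Whether these counts are particular to immune genes was not tested. Carotid body array 1 also had the largest 3' minus 5' difference of Gapdh, 1.45, but adrenal medulla array 1, at 0.51, did not stand apart from 0.13 and 0.61.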

How the data were processed

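Per the submitters' processing notes the authors used Affymetrix Expression Console. Its version and its algorithm for summarising and normalizing probes were not stated. The deposited log2 intensities, 1 for each probe set on each array, range from 2.7 to 14.97; the scale was inferred from that range, and they were used without further normalization. Of all probe sets 64 manufacturer controls were left out. Symbols came from the 2016 platform annotation: 34945 probe sets had 1 symbol, 932 several and 9160 none; RefSeq gene IDs (GRCm38.p6) matched 34741 and changed 0 symbols.

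The model was limma 3.58.1 in R 4.3.3 (lmFit, eBayes, 2 groups, no block), two-sided; it was tested on simulated data. Precision is limited by there being 6 arrays. The members and lists were chosen with earlier results of these data known. Named genes are all measured members and, in each other list, the 4 genes past an adjusted p of 0.05 that differed most, or failing that the 2 brightest; others are said to be chosen after their values were seen. The series' statement on cohorts gives the pairing; same-numbered samples' deviations from the tissue means correlated at 0.22, 0.08 and 0.16, unlike-numbered ones at -0.21 to 0.10. Alternatives were the cohort block, quantile normalization, median centring, removal of probe sets below the median, averaging of a gene's probe sets, array weights, robust variances with an intensity trend, and leaving out each of 6 arrays and 3 cohorts.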

Additional observations from a re-analysis of the deposited data

How the results depend on the processing

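Of the 506 values that the 32 members took under 16 alternatives, 457 kept direction and side of the threshold, 7 passed 2-fold (H2-Aa and H2-Eb1), 0 lost a call and 42 changed sign, all in genes not called. The replicate block on cohort left the counts of members called at 5 higher and 0 lower. Those of every other list were unchanged, except the count called lower in the class I list, at 3 in place of 2. Changes of sign came with median centring for Cd14 (-0.0934), Fcer1g (-0.10), Fcgr3 (-0.11), C1qa (-0.0124), Cd3e (-0.038), Cd79a (-0.0586) and Cd79b (-0.0611); with quantile normalization for C1qc (0.0702), Cd79a (-0.0271) and Cd79b (-0.0642); with array weights for Fcgr3 (-0.0016), C1qc (0.0136) and Ms4a1 (0.0472); and with the mean of probe sets for Ciita (0.0565) and Ms4a1 (0.0504). Leaving out arrays or cohorts, the differences ranged from -0.18 to 0.14 for Cd14, -0.0656 to 0.13 for Fcer1g, -0.22 to 0.15 for Fcgr3, -0.0343 to 0.18 for C1qa, -0.23 to 0.19 for C1qc, -0.0552 to 0.21 for Cd3e, -0.0083 to 0.14 for Cd79a, -0.15 to 0.20 for Cd79b and -0.20 to 0.18 for Ms4a1. The cause was not tested.

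Counts called higher became 1 with quantile normalization, array weights or the mean of probe sets for the MHC class II members (0 to 2 leaving out arrays or cohorts), 9 with the mean of probe sets for other macrophage genes, and 2 with quantile normalization for dendritic genes (1 to 2). For the other class II pathway genes they became 1 with quantile normalization, removal of dim probe sets, array weights or the mean of probe sets, and 0 with median centring (0 to 2). For other macrophage genes, counts called lower became 2 with median centring and 0 with the mean of probe sets (1 to 2). For other complement genes they became 2 with median centring (1 to 2). For the class I list with H2-Ke6 the count became 1 with quantile normalization (1 to 5). Leaving out H2-Ke6 was a choice made after seeing the data. Without it the count was 2 in the model used above and 1 with quantile normalization. For interferon genes, counts called lower became 1 with median centring or array weights (0 to 2). For other B cell genes they became 0 with the mean of probe sets (0 to 1). Leaving out arrays or cohorts, the counts called higher ranged from 1 to 5 for interferon, 0 to 1 for other B cell and 0 to 1 for neutrophil genes, and those called lower from 0 to 1 for mast cell genes. Itgam, Ciita, Cd3g, Cd79a, Cd79b and Ms4a1 fell below the limit of the dim filter and have no value under it.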

Other observations

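Jchain, which joins secreted IgA and IgM in plasma cells, differed between the carotid body pools more than between the tissues. It was 8.12 and 7.63 in carotid body arrays 1 and 3 but 3.70 in array 2, and 4.48 to 5.07 in adrenal medulla. The difference between tissues, 1.73 ± 1.03 (SE; limma adjusted p = 0.287), did not pass. Mzb1, another plasma cell gene, was 5.85 to 6.16 on all arrays, and Ighm was 7.5 to 8.09 in carotid body, with array 2 between the others. Jchain and Mzb1 were chosen after their values were seen.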
